A study of Arabidopsis thaliana with 36 samples.

Results

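Plants read shade from the ratio of red to far-red light (R/FR). A low ratio turns phytochrome B to its inactive form, which releases the phytochrome-interacting factors, bHLH transcription factors that switch on growth genes and auxin synthesis. In seedlings much of that auxin is made in the cotyledons and moves to the hypocotyl, the stem below them, where it drives elongation together with brassinosteroid and gibberellin. The question here was which genes responded differently to low R/FR in the 2 organs after 45 min. The measure was the organ difference, which is the log2 change of low over high R/FR in hypocotyl minus that in cotyledon. A positive value means that the hypocotyl response lay above the cotyledon response, and a negative value that it lay below. All 8 libraries taken at 45 min entered it, of 36 in the whole series, and the libraries were chosen by their labels alone.

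The groups were hypocotyls in low R/FR, hypocotyls in high R/FR, cotyledons in low R/FR and cotyledons in high R/FR, with 2 libraries each. All seedlings were Arabidopsis thaliana Col-0, raised for 5 days in long days of 16 h light, on 1 plate for each sample. On day 6, at ZT2, they were left in high R/FR, labelled white, or moved to low R/FR, labelled far-red. Seedlings were fixed in acetone, cut apart, and the organs of 50 seedlings pooled for each stranded mRNA library. The labels name no separate sowings, so the p-values measure the spread between these samples, which may be technical. Gene counts summed to 28269498 to 29224421 in the hypocotyl libraries and 24897594 to 28786986 in the cotyledon libraries. Levels are given in CPM, read counts relative to the size of the library after TMM scaling (trimmed mean of M values), and fold changes in log2 with their standard errors (SE).

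The organs were checked against marker genes. The 6 markers of mesophyll photosynthesis summed to 18400 to 19100 and 17300 to 19200 CPM in low and high R/FR hypocotyls, against 72900 to 84800 and 73400 to 76200 CPM in low and high R/FR cotyledons. The 8 shoot apex markers summed to 402 to 418 and 368 to 392 CPM in the hypocotyl groups, nearly all from KNAT1, and to at most 0.541 CPM in cotyledons. Without KNAT1 the other 7 summed to 2.02 to 2.06 and 1.97 to 2.54 CPM in low and high R/FR hypocotyls. In cotyledons they summed to at most 0.197 CPM. The hypocotyl sum came mostly from STM (0.789 to 1.35 CPM) and CUC3 (0.645 to 1.31 CPM). CLV3, WUS and LEAFY, which define the apex and flower meristems, were at 0 in all 8 libraries. The 9 endodermis markers summed to 217 to 278 and 204 to 229 CPM in the low and high R/FR hypocotyls, against 85 to 86.4 and 90.3 to 94.9 CPM in low and high R/FR cotyledons, where SCR made up most of the sum at 72.9 to 82.5 CPM. SCR had 71.9 to 77.6 CPM in hypocotyls. Of these 9, the 5 CASP genes of the Casparian strip summed to 66.6 and 106 CPM in low R/FR hypocotyls, 66.8 and 52.3 CPM in high R/FR hypocotyls, and at most 0.317 CPM in any cotyledon library. The 10 root markers summed to 7.91 to 9.98 and 13.7 CPM in low and high R/FR hypocotyls, and to at most 0.724 CPM in cotyledons. WEREWOLF made up most of the hypocotyl sum at 6.51 to 11.7 CPM, and RHD6 was at 0. Of the 2 root markers tested, 1 was called as falling in hypocotyl, against 1.22% of all genes. The 10 vascular markers summed to 263 to 405 CPM over the 8 libraries. These RNA levels come from whole organs, where fewer cells of a type and less RNA per cell cannot be told apart. The 2 low R/FR cotyledon libraries differed most from each other. The SD of their log2 gap over genes was 0.293, against 0.184 to 0.201 within the other groups.

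The organ difference was called for 140 of 20126 genes tested (0.696%) at an adjusted p under 0.05 by edgeR's quasi-likelihood test. It was positive for 59 genes (0.293%) and negative for 81 (0.402%), and 1397 genes had an unadjusted p under 0.05. Each organ alone changed more genes: 666 (3.31%) in hypocotyl, where 420 rose (2.09%) and 246 fell (1.22%), and 728 (3.62%) in cotyledon, where 465 rose (2.31%) and 263 fell (1.31%). The called differences were of at least 2-fold for 78 genes, and the medians of called genes were 1.02 among positive and -1.12 among negative genes. Counts of called members in the gene lists below are to be read against the shares of all genes called. Counts of members at an unadjusted p under 0.05 are to be read against the 1397 of 20126. Without the first low R/FR cotyledon library the count was 475, of 300 positive and 175 negative genes, and it included 130 of the 140. It was 92 without the first high R/FR cotyledon library, 87 without the second, and 90 without the second high R/FR hypocotyl library. Leaving out any 1 of the other 4 gave 95 to 138. All 140 genes kept their sign in each of these fits.

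Most genes with a negative difference rose in cotyledon with no call in hypocotyl. Of the 81, 51 rose in cotyledon and were not called in hypocotyl, and 28 rose in both organs, by more in cotyledon. The last 2, named here because of that count, fell in hypocotyl: LYK4, a LysM receptor kinase, by -0.72 with a change of 0.61 in cotyledon, where it rose, and OFP13, by -0.53 with 0.41 in cotyledon, where it was not called. The 59 positive differences were more mixed. Of these, 25 rose in hypocotyl and were not called in cotyledon, 14 fell in cotyledon and were not called in hypocotyl, and 14 rose in both. A further 3 fell in both organs, 2 rose in hypocotyl and fell in cotyledon, and 1 was called in neither organ.

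**Figure D1:**
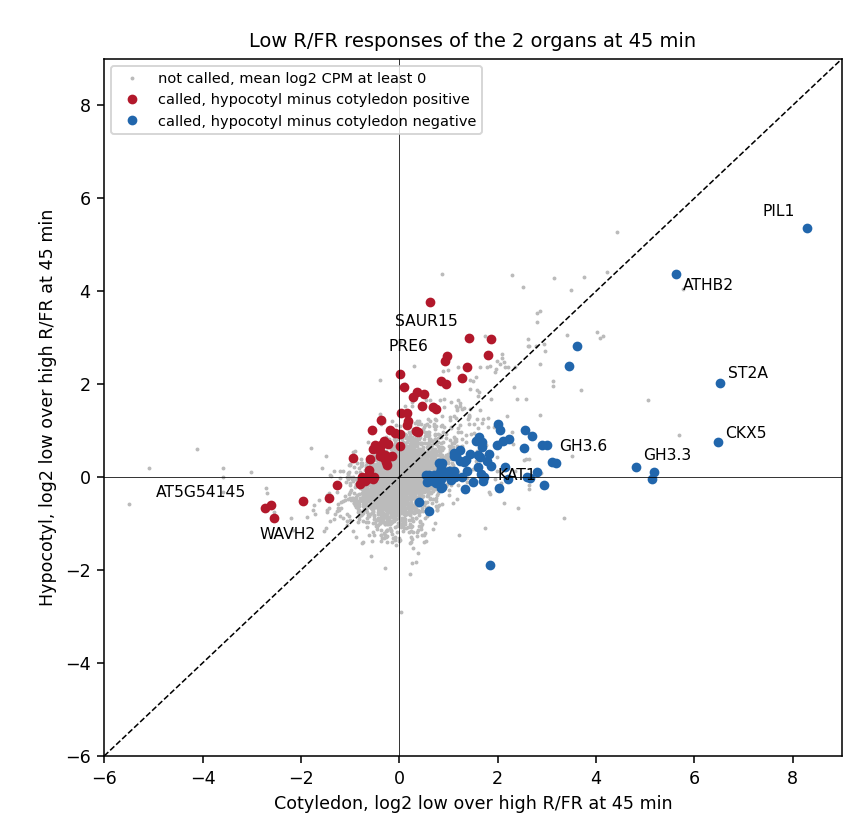
Log2 change of low over high R/FR at 45 min in hypocotyl (vertical axis) against cotyledon (horizontal axis). Each point is a gene, the dashed line marks equal responses, red and blue points are the 59 positive and 81 negative called differences, and grey points are genes not called with a mean log2 CPM of at least 0. Of the 81 blue points, 51 are genes called in cotyledon and not in hypocotyl, and the farthest to the right is PIL1 at 8.28 in cotyledon.

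Genes that remove auxin and cytokinin had some of the most negative differences. GH3 enzymes join auxin to amino acids, and GH3.3 (AT2G23170, chromosome 2, 9863855 to 9866562, TAIR10) had 17.9 and 12.7 CPM in low R/FR hypocotyls and 12 and 14.3 CPM in high R/FR hypocotyls. In cotyledons it had 40.5 and 40.5 CPM in low R/FR and 1.18 and 1.72 CPM in high R/FR. The 2 hypocotyl groups overlapped and the 2 cotyledon groups did not. The log2 change was 0.22 ± 0.16 (SE) in hypocotyl and 4.81 ± 0.23 in cotyledon, an organ difference of -4.59 ± 0.30 (adjusted p = 6.45e-10). GH3.6 (AT5G54510), a second auxin conjugase, started from opposite levels. It had 432 and 448 CPM in low R/FR hypocotyls, 363 and 344 CPM in high R/FR hypocotyls, 5.26 and 5.30 CPM in low R/FR cotyledons, and 0.362 and 0.886 CPM in high R/FR cotyledons. The rise in cotyledon was thus on a level far below that of the hypocotyl, and the organ difference was -2.78 ± 0.32 (adjusted p = 3.49e-06). Of the 10 auxin inactivation genes tested, these 2 were called negative and none positive, against 0.402% and 0.293% of all genes. The list's median difference was -0.148, against 0.003 over all genes. GH3.5, of the same family, came close in the other direction at 1.11 ± 0.27 (adjusted p = 0.0529). It rose by 1.66 ± 0.15 in hypocotyl and was not called in cotyledon, where its change was 0.55 ± 0.22.

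CKX5 (AT1G75450, chromosome 1, 28314458 to 28318375), a cytokinin oxidase that degrades cytokinin, had the most negative difference of all called genes. It had 5.22 and 7.49 CPM in low R/FR hypocotyls, 4.12 and 3.42 CPM in high R/FR hypocotyls, 17.5 and 29.1 CPM in low R/FR cotyledons, and 0.362 and 0.148 CPM in high R/FR cotyledons. It rose in both organs, by 0.75 ± 0.20 in hypocotyl and 6.47 ± 0.32 in cotyledon, which gave -5.71 ± 0.43 (adjusted p = 1.64e-09). The high R/FR cotyledon libraries held 8 and 3 CKX5 counts. The hypocotyl rise was called at an adjusted p of 0.0326, and the authors' deposited table gave it 0.229. CKX5 was the 1 called member of the 13 cytokinin oxidase and type-A response regulator genes tested, against 0.696% of all genes. The list's median difference was -0.279. ST2A (AT5G07010) encodes a sulfotransferase that acts on a hydroxylated jasmonate. Against 0.696% of all genes, it was the 1 called member of 21 jasmonate genes (median -0.250). It had 3.1 and 3.99 CPM in low R/FR hypocotyls, 0.773 and 0.957 CPM in high R/FR hypocotyls, 6.06 and 7.83 CPM in low R/FR cotyledons, and 0.0904 and 0.0492 CPM in high R/FR cotyledons. The high R/FR cotyledon libraries held 3 ST2A counts together, against 310 in low R/FR, 98.1 times as many per unit of depth (95% interval for counting error 33.3 to 478). Its organ difference was -4.51 ± 0.71 (adjusted p = 0.00054).

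In auxin synthesis, the YUCCA enzymes make the final step to indole-3-acetic acid, and YUC2, YUC8 and YUC9 stood at or under 0.507 CPM in every hypocotyl library. YUC2 (AT4G13260) had 0.507 and 0.421 CPM in low R/FR hypocotyls and 0.343 and 0.438 CPM in high R/FR hypocotyls, which overlap. It had 23.9 and 25.4 CPM in low R/FR cotyledons and 6.92 and 6.54 CPM in high R/FR cotyledons. Its organ difference was -1.63 ± 0.37 (adjusted p = 0.0271), and it kept its call in 1 of 8 fits that each left out 1 library, the one without the first low R/FR cotyledon library. The largest adjusted p among the other 7 was 0.499, without the second high R/FR hypocotyl library, where the difference was -1.44. In hypocotyl, YUC8 had 2 counts in low R/FR and 4 in high R/FR, and YUC9 had 2 in each, so that a hypocotyl response was not detectable at this depth. In cotyledon YUC8 rose by 3.35 ± 0.18 and YUC9 by 7.58 ± 0.29. Their organ differences missed the threshold, with adjusted p values of 0.312 and 0.0782. DESeq2 gave YUC9 an adjusted p of 0.000216 and limma-voom 0.00138. For YUC2, limma-voom made no call (adjusted p = 0.104). Among the 8 auxin synthesis genes tested, 1 rose and none fell in hypocotyl, and 4 rose and 1 fell in cotyledon. Over all genes tested, 2.09% rose and 1.22% fell in hypocotyl, and 2.31% rose and 1.31% fell in cotyledon. YUC2 was the list's 1 called organ difference, against 0.696% of all genes, and the list's median was -0.849.

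The carrier AUX1 (AT2G38120), which brings auxin into cells, rose in both organs. It had 260 and 254 CPM in low R/FR hypocotyls, 170 and 171 CPM in high R/FR hypocotyls, 203 and 195 CPM in low R/FR cotyledons, and 81.4 and 88.8 CPM in high R/FR cotyledons. The groups were apart in both organs, and the difference was -0.63 ± 0.10 (adjusted p = 0.00054). It was the 1 member called of 20 auxin transport genes (median 0.007), against 0.696% of all genes. None of 10 auxin receptor and activating ARF genes was called, though AFB1, an auxin receptor, came close at 0.57 ± 0.14 (adjusted p = 0.059). AFB1 passed in 4 of the 8 other whole fits, DESeq2 among them with 0.026.

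The promoters of 4 genes are shown: SAUR15 with a positive difference, and GH3.3, CKX5 and YUC2 with negative ones, because the auxin and cytokinin results turn on them. Each is the run of 250 bases before the gene's start in the RefSeq annotation of TAIR10.1, 5′ to 3′ on the gene's strand, and none overlaps another annotated gene. Capitals mark the PBE-box CACATG, the auxin response element TGTCTC and the evening element AAAATATCT, on either strand. SAUR15 lies at chr4:18125807-18126056 (plus strand), GH3.3 at chr2:9866563-9866812 (minus), CKX5 at chr1:28318376-28318625 (minus) and YUC2 at chr4:7724071-7724320 (minus).
SAUR15: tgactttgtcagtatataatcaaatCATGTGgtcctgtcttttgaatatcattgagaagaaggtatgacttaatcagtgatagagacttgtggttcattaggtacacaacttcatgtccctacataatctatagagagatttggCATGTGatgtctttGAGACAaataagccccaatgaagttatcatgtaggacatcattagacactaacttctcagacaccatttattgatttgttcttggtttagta
GH3.3: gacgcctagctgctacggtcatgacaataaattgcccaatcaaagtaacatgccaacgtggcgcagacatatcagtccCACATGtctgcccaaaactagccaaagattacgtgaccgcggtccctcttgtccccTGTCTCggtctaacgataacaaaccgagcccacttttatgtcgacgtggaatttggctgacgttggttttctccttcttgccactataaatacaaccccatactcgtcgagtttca
CKX5: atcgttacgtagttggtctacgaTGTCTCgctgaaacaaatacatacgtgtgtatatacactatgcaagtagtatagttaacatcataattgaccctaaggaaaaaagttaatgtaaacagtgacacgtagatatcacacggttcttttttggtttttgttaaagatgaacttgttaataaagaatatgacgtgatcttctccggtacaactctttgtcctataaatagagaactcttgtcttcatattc
YUC2: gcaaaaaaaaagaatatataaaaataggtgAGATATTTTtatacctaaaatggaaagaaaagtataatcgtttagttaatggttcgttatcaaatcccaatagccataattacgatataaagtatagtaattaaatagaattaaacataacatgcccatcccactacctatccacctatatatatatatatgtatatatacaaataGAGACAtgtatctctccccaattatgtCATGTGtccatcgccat

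Counted back from the gene's start in the RefSeq annotation, SAUR15 held the PBE-box at positions -225 and -106 and the auxin element at -92. For SAUR15 and YUC2 that start lies upstream of the TAIR10 start in the authors' table (18126171 and 7723989). GH3.3 held a PBE-box at -172 and an auxin element at -116. Over all windows of this length, the PBE-box occurred in 13 of 59 genes with a positive difference (22%), 15 of 81 with a negative difference (18.5%) and 2203 of 20002 tested genes (11%). The G-box CACGTG occurred in 5 (8.47%), 11 (13.6%) and 1446 (7.23%) of these. TGTCTC occurred in 8 (13.6%), 15 (18.5%) and 2121 (10.6%), and TGTCGG in 3 (5.08%), 5 (6.17%) and 929 (4.64%). The evening element occurred in 2 (3.39%), 1 (1.23%) and 487 (2.43%). Of the 8 called SAUR windows, 6 held a PBE-box and none a G-box. These are matches of letters with no test, and none of the searched motifs overlap in the windows shown.

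SAUR proteins are small, short-lived growth promoters that keep the plasma membrane proton pump active. Of 62 SAUR genes tested, 29 rose and 1 fell in hypocotyl, and 24 rose and none fell in cotyledon, of which 23 rose in both organs. Over all genes tested, 2.09% rose in hypocotyl and 2.31% in cotyledon. The organ difference was positive for 8 SAUR genes and negative for none, against 0.293% and 0.402% of all genes. The SAUR median was 0.391. DESeq2 called 9 positive and 1 negative, and leaving out single libraries left 4 to 7 positive and no negative calls. The count was 4 without the second high R/FR hypocotyl library, and 5 without either high R/FR cotyledon library or the first low R/FR hypocotyl library. SAUR15 (AT4G38850, chromosome 4, 18126171 to 18126680) had 56.1 and 56.0 CPM in low R/FR hypocotyls and 7.35 and 6.67 CPM in high R/FR hypocotyls. In cotyledons it had 22.4 and 30.7 CPM in low R/FR and 10.3 and 9.69 CPM in high R/FR. The light groups were apart in each organ, and the change was 3.00 ± 0.20 in hypocotyl and 1.41 ± 0.21 in cotyledon. The organ difference was 1.59 ± 0.29 (adjusted p = 0.00399).

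SAUR50 (AT4G34760) had 130 and 142 CPM in low R/FR hypocotyls, 24.4 and 23.6 CPM in high R/FR hypocotyls, 69.8 and 79.7 CPM in low R/FR cotyledons, and 39.4 and 39.5 CPM in high R/FR cotyledons. It rose in both organs and more in hypocotyl, with a difference of 1.58 ± 0.28 (adjusted p = 0.00399). SAUR14 (AT4G38840) had 154 and 147 CPM in low R/FR hypocotyls, 61.8 and 54.7 CPM in high R/FR hypocotyls, 127 and 129 CPM in low R/FR cotyledons, and 121 and 108 CPM in high R/FR cotyledons. Its change was 1.37 ± 0.12 in hypocotyl and 0.16 ± 0.12 in cotyledon, where it was not called. SAUR6 (AT2G21210) showed the same form, with 0.92 ± 0.11 in hypocotyl and 0.01 ± 0.11 in cotyledon. SAUR64 and SAUR65 rose strongly in both organs, with organ differences of 0.81 ± 0.17 and 1.1 ± 0.23. SAUR64 lost its call without the second high R/FR cotyledon, the second high R/FR hypocotyl or the first low R/FR hypocotyl library (adjusted p of 0.0606 to 0.142). SAUR65 lost its call without any of those 3 or the first high R/FR cotyledon library (0.05 to 0.0875). The other called members were SAUR16 at 1.07 and SAUR62 at 0.86. The genes SAUR14, SAUR15 and SAUR16 lie side by side among tested genes on chromosome 4, and SAUR64 and SAUR65 on chromosome 1. Many SAUR genes are close copies. Reads that aligned to more than 1 place were not counted for any gene, which could lower the counts of such copies, and single members are uncertain. Over the whole library, such reads came to 8.29 to 11.2 per 100 gene counts in hypocotyls and 10.4 to 16 in cotyledons. Among members not called, SAUR22 rose by 4.41 in hypocotyl and 4.22 in cotyledon, and SAUR19 by 2.99 and 4.09.

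Aux/IAA proteins repress auxin response and are themselves induced by auxin. Of 27 tested, 11 rose in both organs and 3 more in cotyledon, against 2.09% of all genes in hypocotyl and 2.31% in cotyledon. No organ difference was called (median -0.054). At an unadjusted p under 0.05 there were 9, against 1397 of all 20126 genes tested. DESeq2 called 1 positive and 1 negative, and limma-voom 1 negative. IAA19 had 70.2 and 79.0 CPM in low R/FR hypocotyls, 11.4 and 9.55 CPM in high R/FR hypocotyls, 112 and 121 CPM in low R/FR cotyledons, and 19.6 and 17.6 CPM in high R/FR cotyledons. Its responses were 2.83 ± 0.21 in hypocotyl and 2.64 ± 0.21 in cotyledon, a gap of 0.19 ± 0.29 (adjusted p = 0.964). IAA29 rose by 3.04 in hypocotyl and 4.14 in cotyledon, with a gap of -1.1 ± 0.36 (adjusted p = 0.321). IAA16 had the smallest p of the list, at -0.41 ± 0.11 (adjusted p = 0.0868), and DESeq2 gave it 0.0149.

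**Figure D2:**
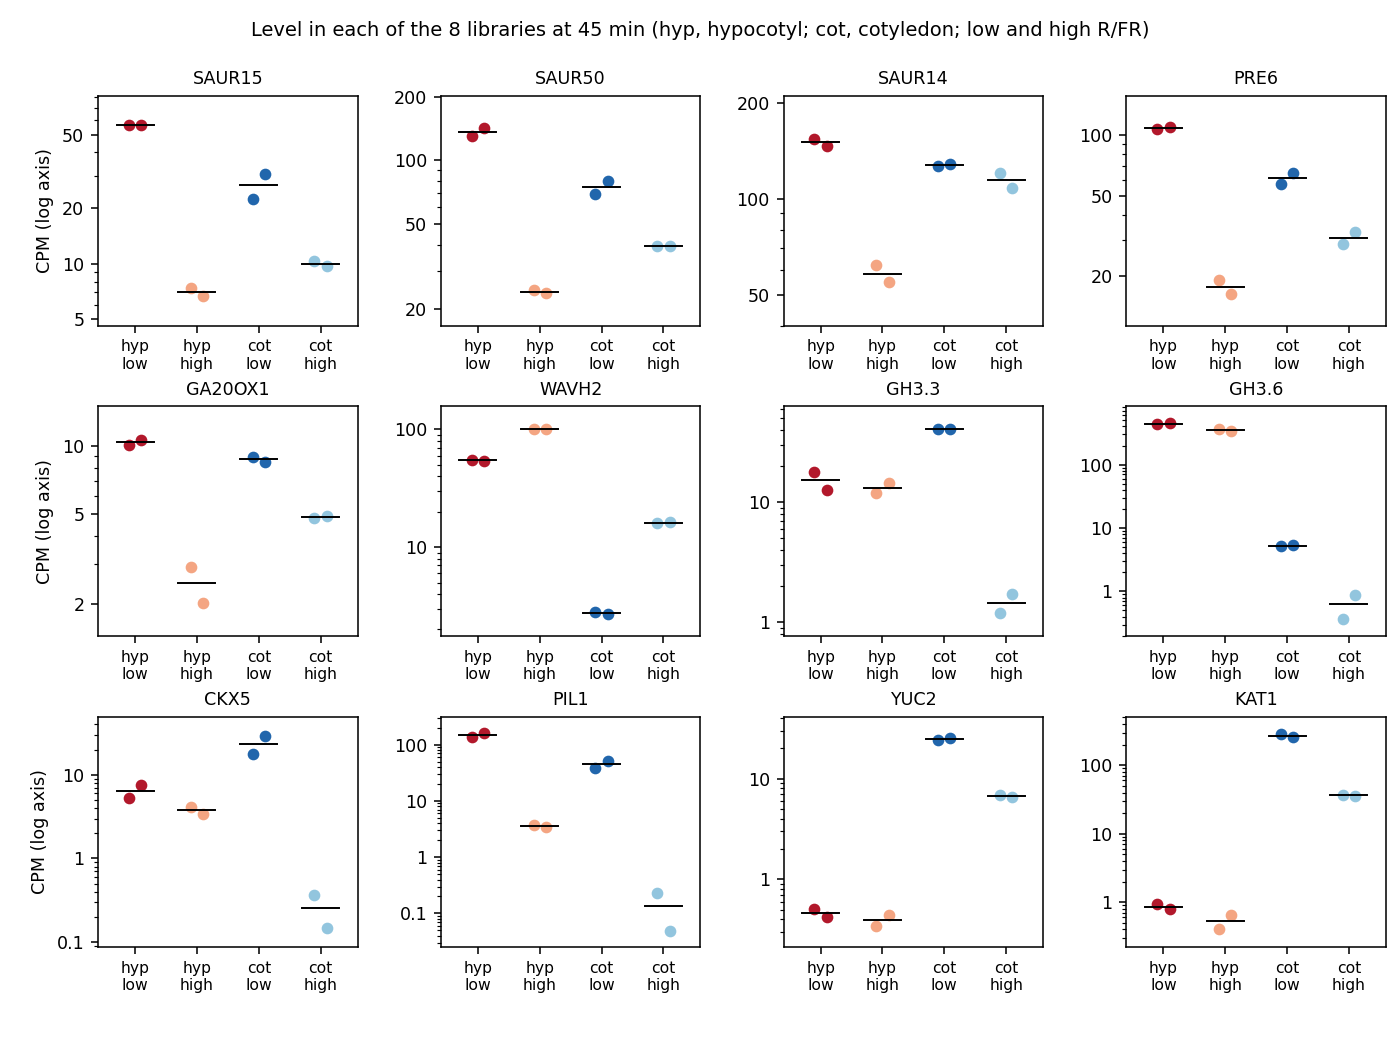
CPM on a log axis for 12 genes in each of the 8 libraries at 45 min, grouped as low and high R/FR hypocotyls and low and high R/FR cotyledons. Points are libraries and bars are means of 2. SAUR15, SAUR50, SAUR14, PRE6 and GA20OX1 spread further between the lights in hypocotyl, and GH3.3, GH3.6, CKX5, PIL1, YUC2 and KAT1 further in cotyledon.

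Of 28 transcription factors and partners tied to the shade response, 14 rose and 3 fell in each organ, 13 rising and 3 falling in both. The shares of all genes were 2.09% and 1.22% in hypocotyl and 2.31% and 1.31% in cotyledon. The organ differences of the 28 were fewer. At an unadjusted p under 0.05 there were 11 organ differences among them, against 1397 of all 20126 genes tested. The adjusted test called 3 negative and 2 positive, against 0.696% of all genes. ATHB4 at -1.73 ± 0.42 and PAR1 at -1.82 ± 0.45 stood just outside (adjusted p of 0.0617 and 0.0726). PIL1 (AT2G46970), a bHLH protein long used as an early shade marker, had 139 and 160 CPM in low R/FR hypocotyls and 3.78 and 3.45 CPM in high R/FR hypocotyls. In cotyledons it had 38.1 and 52.2 CPM in low R/FR and 0.226 and 0.0492 CPM in high R/FR. It ended higher in hypocotyl and changed less there, by 5.37 ± 0.17 against 8.28 ± 0.31 in cotyledon. The difference was -2.90 ± 0.56 (adjusted p = 0.00686), and it was -2.24 with an adjusted p of 0.212 without the second high R/FR cotyledon library. The high R/FR cotyledon libraries held 5 and 1 PIL1 counts. limma-voom gave PIL1 an adjusted p of 0.164.

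ATHB2 (AT4G16780), a homeodomain-leucine zipper factor, had 338 and 393 CPM in low R/FR hypocotyls, 17.7 and 17.3 CPM in high R/FR hypocotyls, 381 and 442 CPM in low R/FR cotyledons, and 7.91 and 8.81 CPM in high R/FR cotyledons. The low R/FR levels of the organs were close, and the difference of -1.24 ± 0.22 (adjusted p = 0.00317) held without any 1 library. HFR1, which binds phytochrome-interacting factors and keeps them off DNA, rose by 2.82 ± 0.12 in hypocotyl and 3.62 ± 0.13 in cotyledon. Its difference of -0.80 ± 0.17 was lost without the second high R/FR cotyledon, the second low R/FR cotyledon, the first high R/FR hypocotyl or the first low R/FR hypocotyl library (adjusted p of 0.0714 to 0.168). The 2 positive members belong to a growth-promoting helix-loop-helix chain. PRE6 (AT1G26945), a small protein without DNA binding, had 107 and 109 CPM in low R/FR hypocotyls, 19.2 and 16.2 CPM in high R/FR hypocotyls, 57.0 and 64.6 CPM in low R/FR cotyledons, and 28.8 and 33 CPM in high R/FR cotyledons. It rose in both organs and more in hypocotyl, by 1.63 ± 0.31 (adjusted p = 0.0112). HBI1, a bHLH activator of growth, changed by 0.99 ± 0.09 in hypocotyl and 0.35 ± 0.09 in cotyledon, a difference of 0.64 ± 0.12. PRE6 and HBI1 both lost their calls without the second high R/FR hypocotyl library (adjusted p of 0.0839 and 0.0581). PRE6 also lost its call without the second high R/FR cotyledon library (0.0771), and HBI1 without the second low R/FR cotyledon library (0.0637).

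Among brassinosteroid and gibberellin genes, called organ differences went both ways. DWF4 (AT3G50660), a cytochrome P450 that limits brassinosteroid synthesis, had 28.8 and 31 CPM in low R/FR hypocotyls, 17.9 and 17.4 CPM in high R/FR hypocotyls, 58.2 and 58.4 CPM in low R/FR cotyledons, and 18.4 and 18.1 CPM in high R/FR cotyledons. The organs started at like levels, and the difference was -0.92 ± 0.13 (adjusted p = 0.000116). CPD, a P450 of the same pathway, differed by -0.51 ± 0.11 and lost its call without the first high R/FR cotyledon, first high R/FR hypocotyl or first low R/FR hypocotyl library (adjusted p of 0.0627 to 0.134). These were the 2 called of 13 brassinosteroid genes (median -0.089), against 0.696% of all genes. The fit of the 8 libraries alone did not call CPD (adjusted p = 0.0985). GA20OX1 (AT4G25420), an oxidase late in gibberellin synthesis, had 10.1 and 10.6 CPM in low R/FR hypocotyls, 2.89 and 2.02 CPM in high R/FR hypocotyls, 8.94 and 8.47 CPM in low R/FR cotyledons, and 4.79 and 4.87 CPM in high R/FR cotyledons. It differed by 1.22 ± 0.25 (adjusted p = 0.00747), and without the second high R/FR hypocotyl library by 0.99 (adjusted p = 0.142) and without the second high R/FR cotyledon library by 1.21 (0.051). GID1A, a gibberellin receptor, changed by 0.01 ± 0.13 in hypocotyl, where it was not called, and rose by 1.28 ± 0.14 in cotyledon, a difference of -1.27 ± 0.19. RGL3, a DELLA repressor of gibberellin response, differed by -1.02 ± 0.24 and kept its call in 1 of 8 fits without a library, the one without the first low R/FR cotyledon library (largest adjusted p 0.255, without the second high R/FR cotyledon library). For RGL3, neither limma-voom (adjusted p = 0.0778) nor the fit of the 8 libraries alone (0.0538) made a call. Of 18 gibberellin genes, 1 was thus positive and 2 negative in the main fit (median -0.060), against 0.293% and 0.402% of all genes.

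Among wall genes, EXPA9 and EXPB3 encode expansins, which loosen cell walls, and were the 2 called of 16, against 0.696% of all genes. EXPA9 had 13.2 and 17.6 CPM in low R/FR hypocotyls, 6.27 and 7.03 CPM in high R/FR hypocotyls, 6.55 and 8.69 CPM in low R/FR cotyledons, and 6.33 and 7.13 CPM in high R/FR cotyledons, and differed by 1.03 ± 0.21 (adjusted p = 0.00975). EXPB3 had 596 and 647 CPM in low R/FR hypocotyls, 578 and 596 CPM in high R/FR hypocotyls, 42.2 and 52.3 CPM in low R/FR cotyledons, and 25.0 and 27.1 CPM in high R/FR cotyledons, and differed by -0.78 ± 0.16 (adjusted p = 0.00706). EXPA9 lost its call without the second high R/FR cotyledon or second low R/FR hypocotyl library (0.108 and 0.0885). EXPB3 lost it without the first high R/FR cotyledon, second low R/FR cotyledon or first low R/FR hypocotyl library (0.0606 to 0.119). None of 24 XTH genes, whose enzymes cut and rejoin xyloglucan, was called. At an unadjusted p under 0.05 there were 6, against 1397 of all 20126 genes tested. XTH15 differed by -1.57 ± 0.43 (adjusted p = 0.11), and DESeq2 gave it 0.0107. CYCD1;1, a D-type cyclin, differed by 0.73 ± 0.17 (adjusted p = 0.0328) and kept its call in 3 of 8 fits without a library. It was the 1 called of 17 cell cycle genes, against 0.696% of all genes. The fit of the 8 libraries alone called neither CYCD1;1 (adjusted p = 0.132) nor EXPA9 (0.127).

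**Figure D3:**
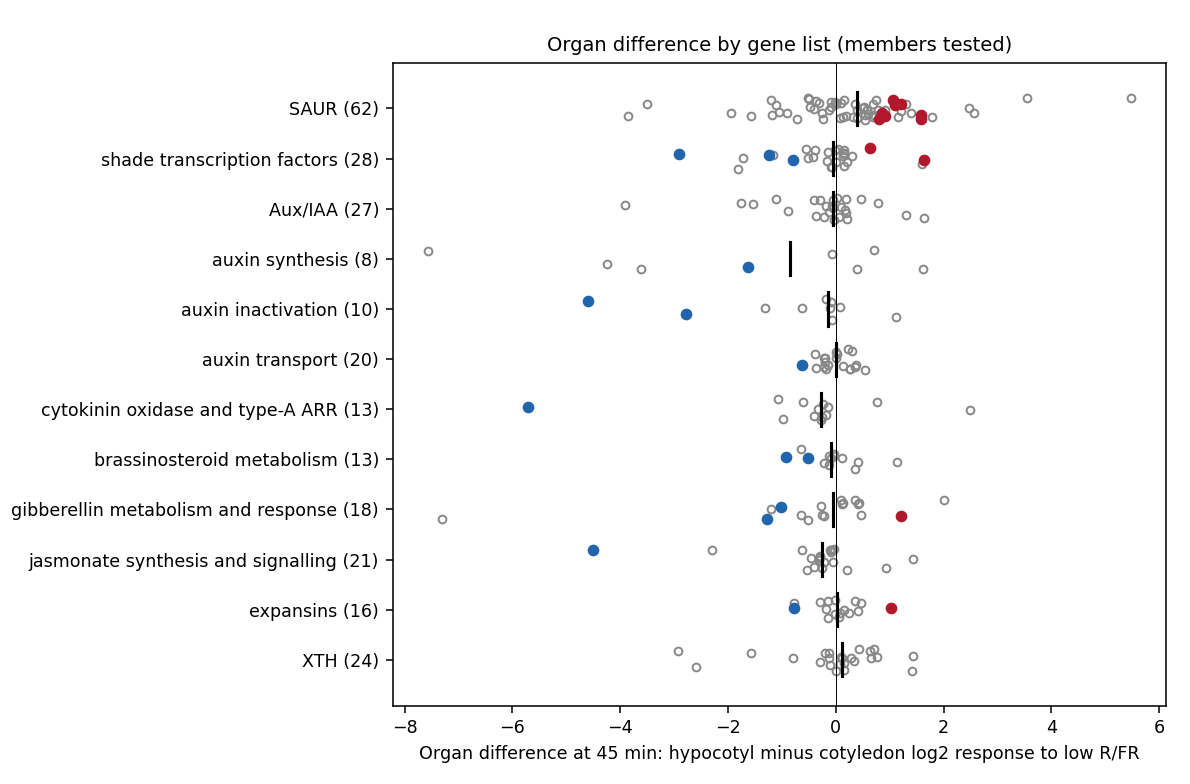
Organ difference at 45 min, hypocotyl minus cotyledon log2 response, for the tested members of 12 gene lists, with the number tested in parentheses. Red and blue points are called positive and negative members, open points were not called, and black bars mark list medians. The 8 called SAUR members are all positive, at 0.81 to 1.59, and the called members of the auxin and cytokinin lists are all negative.

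Lists with no called member were ethylene (16 genes tested), abscisic acid (9), wall cellulose synthesis (9), nuclear photosynthesis (23), light signalling with its photoreceptors (20), the clock (24), heat shock (9), flavonoid synthesis (13) and the response to touch and wounding (19). At an unadjusted p under 0.05 the clock had 4 members, photoreceptors 3, touch 2, ethylene and abscisic acid 1 each, and the other 4 lists none. Over all genes tested it was 1397 of 20126. The median difference of these lists ran from -0.266 for touch to 0.130 for cellulose synthesis. Their members with the smallest p included ACS11 at 1.32 ± 0.51 (adjusted p = 0.484), an ethylene synthesis enzyme, and PKS1 at 0.65 ± 0.18 (adjusted p = 0.128), a phytochrome kinase substrate. XTH22, a touch-induced wall enzyme, stood at 1.41 ± 0.42 (adjusted p = 0.23), and the fit of the 8 libraries alone gave it 0.00528. The others were RVE7 at -0.46, CESA2 at 0.17, LHCB1.3 at -0.21, and the chalcone isomerase AT3G55120 at -0.37. NCED5, an enzyme of abscisic acid synthesis, had 20 counts in low R/FR hypocotyls and 0 in high R/FR hypocotyls, at least 6.7-fold higher against a floor of 3 counts over the group, and its rise in hypocotyl was called (adjusted p = 0.00227). In cotyledons it had 0.133 and 0.0905 CPM in low R/FR and 0.0904 and 0.197 CPM in high R/FR. Its organ difference missed the threshold (adjusted p = 0.0777), while limma-voom gave it 0.019, and the alternatives ran from 0.019 to 0.441. HSP17.4 was at 0 to 0.498 CPM in every library (adjusted p = 0.828).

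Outside these lists, called genes under a mean log2 CPM of 1 reached -5.19, for AT1G03990. At or above that level, the most negative differences included transcription factors and genes of membrane traffic and signalling. AT2G36400, the growth-regulating factor GRF3, had 13.1 and 12.6 CPM in low R/FR hypocotyls, 10.4 and 10.4 CPM in high R/FR hypocotyls, 29.6 and 30.1 CPM in low R/FR cotyledons, and 3.03 and 3.49 CPM in high R/FR cotyledons (difference -2.88 ± 0.30). MYB7, an R2R3-MYB factor, had 15 and 17 CPM in low R/FR hypocotyls, 15.7 and 16.9 CPM in high R/FR hypocotyls, 2.39 and 2.67 CPM in low R/FR cotyledons, and 0.588 and 0.492 CPM in high R/FR cotyledons (-2.24 ± 0.26). CYP96A9, a cytochrome P450, and RABA6a, a Rab GTPase, had the same form, rising by 2.03 ± 0.24 and 2.59 ± 0.35 in cotyledon from levels under that of the hypocotyl. AT3G05640, annotated as a protein phosphatase 2C, differed by -2.31 ± 0.32. AT3G62070 and AT2G39870, both of unknown function in the authors' table, differed by -2.69 ± 0.39 and -1.93 ± 0.14. These 7 genes held their calls without any 1 library.

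KAT1 (AT5G46240), an inward potassium channel of guard cells, had 0.930 and 0.786 CPM in low R/FR hypocotyls, 0.401 and 0.657 CPM in high R/FR hypocotyls, 282 and 261 CPM in low R/FR cotyledons, and 36.5 and 36.1 CPM in high R/FR cotyledons. Its change was 0.69 ± 0.35 in hypocotyl, where it was not called, and 2.90 ± 0.13 in cotyledon, with a difference of -2.22 ± 0.40 (adjusted p = 0.00274). Without the second high R/FR hypocotyl library it was -1.81 with an adjusted p of 0.313. The other 10 stomatal markers summed to 17.2 to 19 CPM in low R/FR hypocotyls, 20.8 CPM in both high R/FR hypocotyls, 75.3 to 85.2 CPM in low R/FR cotyledons and 66.7 to 76.7 CPM in high R/FR cotyledons. The cotyledon ranges of those 10 overlapped between the lights, while KAT1 did not. In hypocotyls most of that sum was MYB60, at 14.5 to 19.2 CPM, against 15.2 to 22.3 CPM in cotyledons.

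The largest positive difference was 3.15 ± 0.47, for AT1G54120, whose mean log2 CPM was 0.57. At a mean log2 CPM of at least 1, the most positive differences included genes that fell in cotyledon. WAVH2 (AT5G65683), a RING-type zinc finger protein, had 54.8 and 54.3 CPM in low R/FR hypocotyls, 101 and 100 CPM in high R/FR hypocotyls, 2.83 and 2.72 CPM in low R/FR cotyledons, and 16.0 and 16.3 CPM in high R/FR cotyledons. It fell in both organs and more in cotyledon, by -0.88 ± 0.09 in hypocotyl and -2.54 ± 0.14 in cotyledon (difference 1.66 ± 0.17, adjusted p = 1.92e-07). AT5G54145, of unknown function, had 3.66 and 3.79 CPM in low R/FR hypocotyls, 7.15 and 4.76 CPM in high R/FR hypocotyls, 1.28 and 2.04 CPM in low R/FR cotyledons, and 11.2 and 11.1 CPM in high R/FR cotyledons (2.07 ± 0.32). AT1G62975, a bHLH gene, fell by -0.52 ± 0.13 in hypocotyl and -1.95 ± 0.25 in cotyledon. Genes that rose in hypocotyl alone included AT1G06360, a fatty acid desaturase, at 0.874 and 0.982 CPM in low R/FR and 0.172 and 0.219 CPM in high R/FR hypocotyls. In cotyledons it had 26.9 and 26.7 CPM in low R/FR and 28 and 25.1 CPM in high R/FR, and the difference was 2.21 ± 0.37 (adjusted p = 0.000864). PHI-1 of the phosphate-responsive family (1.83 ± 0.40), the transporter AT1G72140 (1.59 ± 0.34), the kinase AT2G31010 (1.47 ± 0.26) and the methionine gamma-lyase MGL (1.45 ± 0.27) were called in hypocotyl and not in cotyledon. So was MIR167d (1.56 ± 0.32), the precursor of a microRNA that targets activating ARF genes. For AT1G62975, limma-voom made no call (adjusted p = 0.0674), and the fit of the 8 libraries alone made none for MGL (0.101). PHI-1 kept its call in 2 of 8 fits without a library, AT1G72140 in 3, MIR167d in 4, AT1G62975 in 6 and MGL in 7, with largest adjusted p values of 0.226, 0.148, 0.129, 0.16 and 0.0855.

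Resting levels before the treatment leaned opposite ways for the 2 sets. At 0 min, in 4 libraries outside the comparison, 18 of 59 genes with a positive difference (30.5%) stood higher in hypocotyl than in cotyledon, with a median log2 ratio of -0.90. Of the 81 with a negative difference, 57 (70.4%) stood higher in hypocotyl, with a median of 0.75. Over all tested genes the share was 51.7% and the median 0.03. At least 4-fold lower in hypocotyl were 11 of the 59 and 6 of the 81, and at least 4-fold higher 2 and 21. GH3.6 and AT1G06360, above, are examples at 45 min. This lean was not tested.

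The organ difference at the other times was read in libraries of their own, high R/FR ones included. At 15 min, 40 of the 59 positive genes had the same sign (67.8%, against 47.1% of all genes), at 90 min 56 (94.9%, against 50.9%) and at 180 min 48 (81.4%, against 49.6%). Their median difference was 0.12, then 1.02 at 45 min, 2.27 at 90 min and 1.18 at 180 min. Of the 81 negative genes, 64 (79.0%, against 52.8%), 70 (86.4%, against 49.1%) and 54 (66.7%, against 50.4%) kept the sign, with medians of -0.20, -1.12 at 45 min, -0.87 and -0.54. Called with the same sign were 0, 52 and 45 of the positive and 1, 58 and 40 of the negative genes. Called with the opposite sign were 0, 2 and 7 of the positive and 0, 5 and 17 of the negative genes. Calls over all genes numbered 3 (0.0149%) at 15 min, 4300 (21.4%) at 90 min and 9351 (46.5%) at 180 min, so later calls are read against these shares. At 90 min 12.2% of all genes were called positive and 9.12% negative, and at 180 min 23.7% and 22.8%.

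Single genes took different courses. SAUR15 had differences of 0.30, 1.59, 4.13 and 3.11 at 15, 45, 90 and 180 min, and PRE6 of 0.64, 1.63, 3.65 and 4.27. Their change from 45 to 90 min passed the test (adjusted p of 0.000116 and 0.0036). PHI-1 reached 7.94 at 90 min and 3.74 at 180 min. CKX5 held at -4.98 and -5.76, with no change from 45 min called (adjusted p of 0.656 and 0.995). GH3.6 stood at -0.03 and 0.26 at 90 and 180 min, and its change from 45 min was 2.75 and 3.04 (adjusted p of 2.04e-05 and 3.72e-06). GH3.6 was named for its 45 min value, and that value enters the test. GH3.3 stood at -0.71 at 90 min and -3.66 at 180 min. IAA19, which did not differ by a called amount at 45 min, stood at 2.91 and 3.4 at the later times, and the change from 45 min was 2.72 and 3.21 (adjusted p of 8.55e-05 and 3.54e-06).

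**Figure D4:**
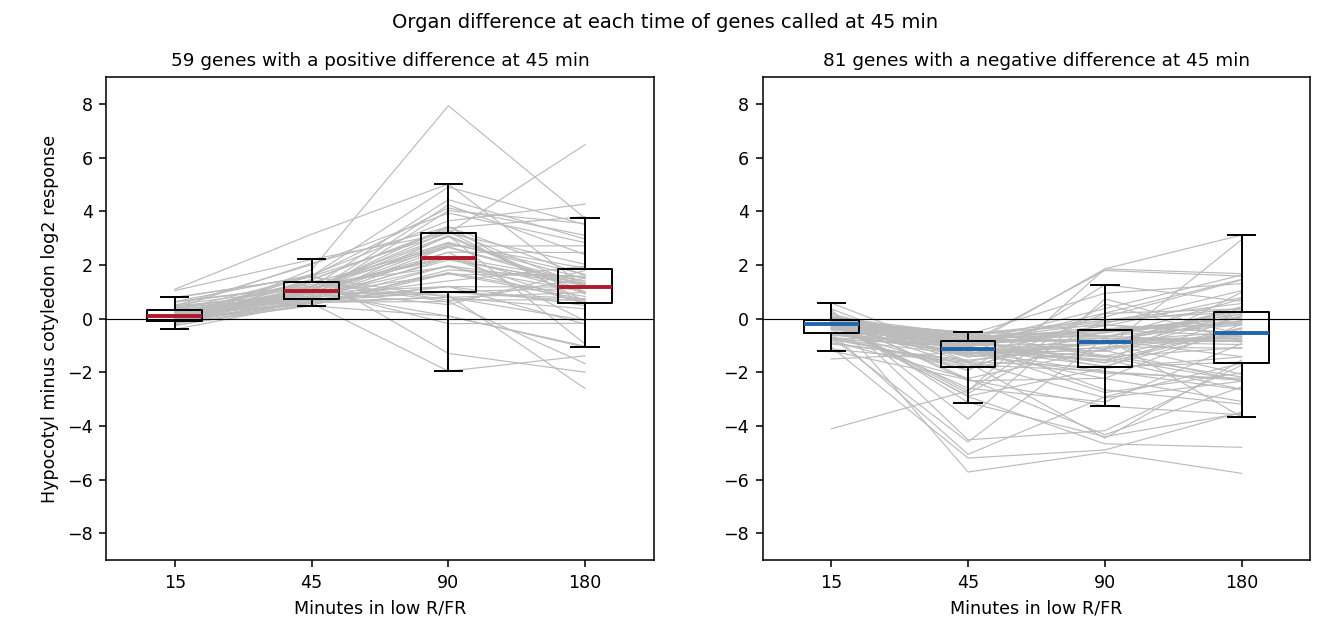
Organ difference, hypocotyl minus cotyledon log2 response, at 15, 45, 90 and 180 min for genes called at 45 min, each grey line 1 gene. Boxes span quartiles with the median in colour, whiskers reach the last value within 1.5 box lengths, and the 45 min boxes are one-signed because the genes were chosen there. The median of the 59 positive genes reached 2.27 at 90 min, and that of the 81 negative genes was -0.87 at 90 min.

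The authors' deposited tables give their own log2 changes for each organ. For all 140 genes the hypocotyl minus cotyledon gap of those tables had the same sign as here, and the largest discrepancy was 0.38. Those tables come from the same series, so the match is a check of processing and no independent evidence. It covers signs and sizes, and calls within each organ can differ.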

How the data were processed

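RNA of dissected organs was sequenced in 36 libraries, 8 of them at 45 min. The deposited counts are raw reads per gene for 33602 genes. Per the submitters' processing notes, limma 3.18.2, edgeR 3.4.0, HTSeq 0.5.4p3, cutadapt 1.2.1, Bowtie and TopHat2 2.0.9 were used with the build TAIR10, and no roles are given. The authors' deposited log2 fold changes and adjusted p-values served as a comparison only.

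Counts were fitted with edgeR 4.0.16 in R 4.3.3 over all 36 libraries, with 1 mean for each of 18 groups and TMM scaling. The 5 summary lines for unassigned reads were left out. In the 45 min libraries, reads without a feature came to 1.12 to 1.26% in hypocotyls and 0.871 to 1.12% in cotyledons of all counted reads. The filter was filterByExpr with a minimum count of 10 and total of 15. The quasi-likelihood test was adjusted over 20126 genes by Benjamini-Hochberg, with a threshold of 0.05. Intervals for low counts cover counting error only.

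Genes named were, among those called with a mean log2 CPM of at least 1, the 12 most positive and 12 most negative. To these came up to 6 called members of each list by p, or the 1 with the smallest p, and PIL1, HFR1, ATHB2, XTH15, YUC8, YUC9, IAA19 and IAA29. LYK4, OFP13, SAUR16, SAUR62, SAUR19, SAUR22, GH3.5, ATHB4, PAR1, ST2B, AT4G28240, BLH4, AT1G03990 and AT1G54120 were named after their values were seen. SAUR21 (AT5G18030) and ACO3 (AT1G12010), symbols that other genes share, were set by locus. The comparison and the lists were chosen with earlier results of these data known. Alternatives were RLE scaling, total counts, no filter, the 8 libraries alone, DESeq2 1.42.0, limma-voom 3.58.1, replicate blocks and leaving out each library.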

Additional observations from a re-analysis of the deposited data

Results flagged for a closer look

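Low R/FR responses at 45 min differed between hypocotyl and cotyledon for 140 genes by the interaction test, as described above.

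For 6 named genes the organ difference later took the opposite sign, and the change from 45 min was itself tested. The later values came from separate libraries, but the test also used the 45 min libraries, in which these genes were called. Choosing genes there favours a smaller difference later. WAVH2 stood at 1.66 at 45 min, -1.29 at 90 min and -1.99 at 180 min. AT3G62070 stood at -2.69, 1.86 and 3.12 at these times, and AT2G39870 at -1.93, 1.27 and 0.65. DWF4, of brassinosteroid synthesis, stood at -0.92, 1.80 and 1.59, and the DELLA gene RGL3 at -1.02, 1.86 and 1.68. AUX1, the auxin influx carrier, stood at -0.63 at 45 min and 0.39 at 180 min. The changes from 45 min had adjusted p values of at most 3.17e-07 for the first 5 genes, at both times, and of 2.54e-06 for AUX1 at 180 min.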

How the results depend on the processing

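The count of 140 called organ differences (59 positive, 81 negative) stayed within 1.5 times under RLE scaling, total-count scaling, no filter on low counts, the 8 libraries alone, DESeq2 and limma-voom, at 126 to 201. With DESeq2 the positive count was 90. A block that takes same-numbered hypocotyl and cotyledon libraries of 1 light and time as 1 plate gave 237 calls, 99 positive and 138 negative, and a replicate block by number gave 163. Among named genes the plate block added 5 calls, IAA29 among them (adjusted p = 0.000411). It lost the calls of PHI-1 (0.345) and AT1G72140 (0.0738). The labels do not say whether the numbers pair samples, and the main fit did not pair them. Hypocotyl and cotyledon libraries with the same number correlated at 0.0538 to 0.14 after group means were removed. Low and high R/FR libraries with the same number at 45 min correlated at -0.0262 in hypocotyl and 0.00365 in cotyledon. Pairing was not tested. The plate block could not be fitted within 1 organ. Leaving out single libraries gave 87 to 475 calls, 27 to 300 of them positive and 58 to 175 negative. The calls within hypocotyl then ran from 365 to 689, and those within cotyledon from 433 to 2132. The 2132 came without the first low R/FR cotyledon library, and the cause was not tested. All 140 genes kept their sign in every setting, and 63 were called in every setting, 21 positive and 42 negative. No scaling moved the median of all genes by more than 0.004. With 2 libraries in each group, low counts limit YUC2, YUC8, YUC9, KAT1 and AT1G06360 in hypocotyl. They also limit PIL1, ST2A, CKX5, GH3.6 and RABA6a in high R/FR cotyledons, among others. The high R/FR cotyledon libraries held 8 and 18 GH3.6 counts and 6 and 6 RABA6a counts. The high R/FR hypocotyl libraries held 12 and 16 YUC2 counts and 6 and 8 AT1G06360 counts.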

Other observations

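Among the 140 called genes there were 12 pairs of called neighbours, with no other tested gene between them in the RefSeq annotation, and both members had the same sign in all 12 pairs. The pairs held 23 of the 140 genes (16.4%). They included the SAUR clusters, ST2A with ST2B (-4.51 and -1.42, with 1652 bases between them) and EXPB3 with AT4G28240 (-0.78 and -1.33, 1020 bases). LYK4 and BLH4 (-1.33 and -0.72) were 6645 bases apart. The share of such pairs among all tested genes was not computed. Whether reads of one gene were counted for its neighbour was not tested.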
